A study of Mus musculus with 12 samples.

Results

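The genes described here belong to families of enzymes that write and erase acetyl and methyl marks on histones and methyl marks on DNA. Not every member acts on chromatin. They were chosen by symbol, with earlier results of these data known. The rule took every Hdac, Sirt, Tet, Dnmt, Kdm, Kmt and Kat gene with a numbered symbol, leaving out Dnmt3c, Kdm5c, Kdm5d and Kdm6a. The genes taken number 55 of the 52636 genes in the deposited tables. The 55 genes comprised 11 histone deacetylases, 7 sirtuins, 3 Tet dioxygenases, 3 DNA methyltransferases, 15 lysine demethylases, 8 lysine methyltransferases and 8 lysine acetyltransferases. RNA was taken from dissected, frozen hippocampi of 12 mice of the wild-type strain C57BL6/J, all 18 weeks old, and each library came from another mouse. The mice fell into 4 groups of 3, which were males with low extinction, males with high extinction, females with low extinction and females with high extinction. Fear extinction is the waning of a learned fear response when its trigger is met again without harm. No group carried a transgene or received a drug, as far as the labels tell. What training the mice had before dissection is not given here. Changes below are low minus high extinction, so a positive change means more transcript in mice with low extinction.

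Histone acetyltransferases add acetyl groups to histone tails, which loosens the packing of DNA. Many of the histone deacetylases and some of the NAD-dependent sirtuins take them off. Lysine methyltransferases and demethylases set histone methyl marks that accompany active or silent chromatin, depending on the residue. DNA methyltransferases methylate cytosine, mostly where it precedes guanine (CpG), and Tet enzymes oxidise the methyl group as a first step of its removal. In the rodent hippocampus, deacetylase inhibitors are known to strengthen memory and extinction learning, and loss of Hdac2, Hdac3, Tet1, Dnmt3a or Kmt2a is known to alter memory in mice.

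No gene of the 55 passed the test between low and high extinction in either sex. In the males of the authors' deposited DESeq2 tables, 0 of 55 had an adjusted p under 0.05, against a background of 0.504% of 20050 genes, and in the females 0 of 53, against 0.857% of 15644 genes. The 2 genes without an adjusted p in females, Dnmt3b and Kdm4d, were the only ones below a mean of 1 TPM. TPM, the unit of level, is transcript abundance per length, with every library brought to an equal sum. The leading genes below are therefore described by their values, and none of them is called changed. In whole hippocampus, fewer cells of a type and less RNA per cell cannot be told apart.

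Promoter sequence is shown first for 4 of the genes with the values that stand out below, from the RefSeq table of build GRCm38.p6, which held 44 of the 55 genes. Each run is the 250 bases before an annotated start, written 5′ to 3′ on the gene's strand, with every CpG in capitals. Tet2 (chr3:133544391-133544640, minus strand), an oxidiser of methylcytosine, and Kmt5a (chr5:124439680-124439929, plus strand), which places a single methyl group on histone H4, had the smallest p in females and the second smallest in males. Hdac9 (chr12:34917096-34917345, minus strand), a class IIa deacetylase, is shown as one of the 2 CpG-free windows in the family. Dnmt3a, which methylates DNA anew, is shown at an upstream start (chr12:3806730-3806979, plus strand) and at an internal start (chr12:3891494-3891743, plus strand). It was picked because its TPM change and its count-based change were unlike in females. Use of either start was not measured, and its part in that gap was not tested.
Tet2: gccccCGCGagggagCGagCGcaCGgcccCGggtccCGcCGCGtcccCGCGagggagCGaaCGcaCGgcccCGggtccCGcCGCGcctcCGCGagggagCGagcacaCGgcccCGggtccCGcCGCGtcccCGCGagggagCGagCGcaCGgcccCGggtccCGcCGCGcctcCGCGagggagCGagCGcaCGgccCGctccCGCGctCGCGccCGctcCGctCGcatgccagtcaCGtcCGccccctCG
Kmt5a: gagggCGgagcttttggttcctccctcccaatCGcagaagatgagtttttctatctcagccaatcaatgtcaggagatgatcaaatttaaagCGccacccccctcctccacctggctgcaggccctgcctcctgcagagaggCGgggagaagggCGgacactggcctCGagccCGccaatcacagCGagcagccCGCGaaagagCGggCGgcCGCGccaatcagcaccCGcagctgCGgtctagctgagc
Hdac9: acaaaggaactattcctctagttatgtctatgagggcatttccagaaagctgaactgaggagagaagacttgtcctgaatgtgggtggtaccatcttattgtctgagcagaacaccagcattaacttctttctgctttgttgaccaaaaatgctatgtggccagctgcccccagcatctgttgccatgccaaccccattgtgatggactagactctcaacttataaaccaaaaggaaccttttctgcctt
Dnmt3a upstream: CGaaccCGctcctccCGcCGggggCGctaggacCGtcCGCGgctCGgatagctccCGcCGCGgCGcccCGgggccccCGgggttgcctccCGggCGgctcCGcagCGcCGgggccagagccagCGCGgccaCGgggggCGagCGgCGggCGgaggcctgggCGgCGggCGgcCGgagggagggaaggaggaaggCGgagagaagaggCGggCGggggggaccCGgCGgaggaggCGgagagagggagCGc
Dnmt3a internal: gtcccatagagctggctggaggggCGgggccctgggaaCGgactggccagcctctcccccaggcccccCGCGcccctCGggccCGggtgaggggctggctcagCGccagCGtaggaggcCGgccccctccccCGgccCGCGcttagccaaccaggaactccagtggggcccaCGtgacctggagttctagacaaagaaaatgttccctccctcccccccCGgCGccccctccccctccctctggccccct

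The windows of these enzyme genes were richer in CpG than those of most genes. The median window held 15 CpG in the 44 genes, against 6 over all 27025 genes in the table, and the median GC content was 60.2%, against 52%. The ratio of observed CpG to the number that base composition alone would give was over 0.6 in 32 of 44 windows (72.7%), against 34.6% of all windows. The Tet2 window held 51 CpG, that of Dnmt3a 38 at the upstream and 15 at the internal start, that of Kmt5a 16, and those of Hdac9 and Kdm4c 0. Kdm7a had the most, with 56.

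Short motifs were searched on both strands of the 250 bases. The GC box GGGCGG, read by Sp factors, occurred in 28 of 44 windows (63.6%), against 33.03% of all windows, and in each of the 5 printed except that of Hdac9. TATAAA occurred in the windows of Hdac8 and Hdac9 (4.55%), against 12.9% of all. The ETS motif CCGGAAGT occurred in the windows of Sirt3 and Sirt6 (4.55%), against 2.94%; the NRF1 motif occurred in that of Sirt6 (2.27%), against 0.777%. The cyclic AMP response element TGACGTCA was in none of the 44 windows, against 1.61% of all. These are matches of letters and not measured sites.

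The tissue and the libraries set the frame for the levels. All 14 hippocampal markers on a fixed list, among them Prox1 of the dentate gyrus and Wfs1 of area CA1, lay above a mean of 1 TPM, and 0 of them was called in either of the authors' deposited tables. A library held 18170 to 19062 genes at 1 TPM or more. Ribosomal RNA-derived transcripts made up 7.31% (a low-extinction female, replicate 3) to 21.8% (a high-extinction male, replicate 1) of TPM. This set held genes annotated as ribosomal RNA, mitochondrial ones included, and a fixed list of symbols that includes the protein-coding gene Lars2. The 55 genes summed to between 1564 and 1917 TPM per library, and to between 1883 and 2075 TPM after this set was taken out and the rest rescaled. Depth per library is unknown, because TPM keeps no record of reads, and the mean normalized count of the genes in the authors' deposited tables ran from 33.4 to 14238 in males and from 181 to 15494 in females with an adjusted p.

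Nearly the whole family was transcribed at an easily measured level. Of the 55 genes, 53 had a mean of at least 1 TPM, 49 of at least 10 TPM and 37 of at least 20 TPM, and the median gene lay at 26.3 TPM, against 13.9 TPM for all 18499 genes at 1 TPM or more. Sirt2, a mainly cytoplasmic sirtuin that is abundant in oligodendrocytes, was highest at 130 TPM, followed by Hdac11 at 109 TPM and Hdac5 at 98.1 TPM. The other end of the family was formed by Kdm8 at 3.24 TPM, Kdm4d at 0.647 TPM and Dnmt3b at 0.604 TPM. Males and females were quantified in separate tables, so sex and table cannot be told apart and levels were not tested between the sexes.

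**Figure D1:**
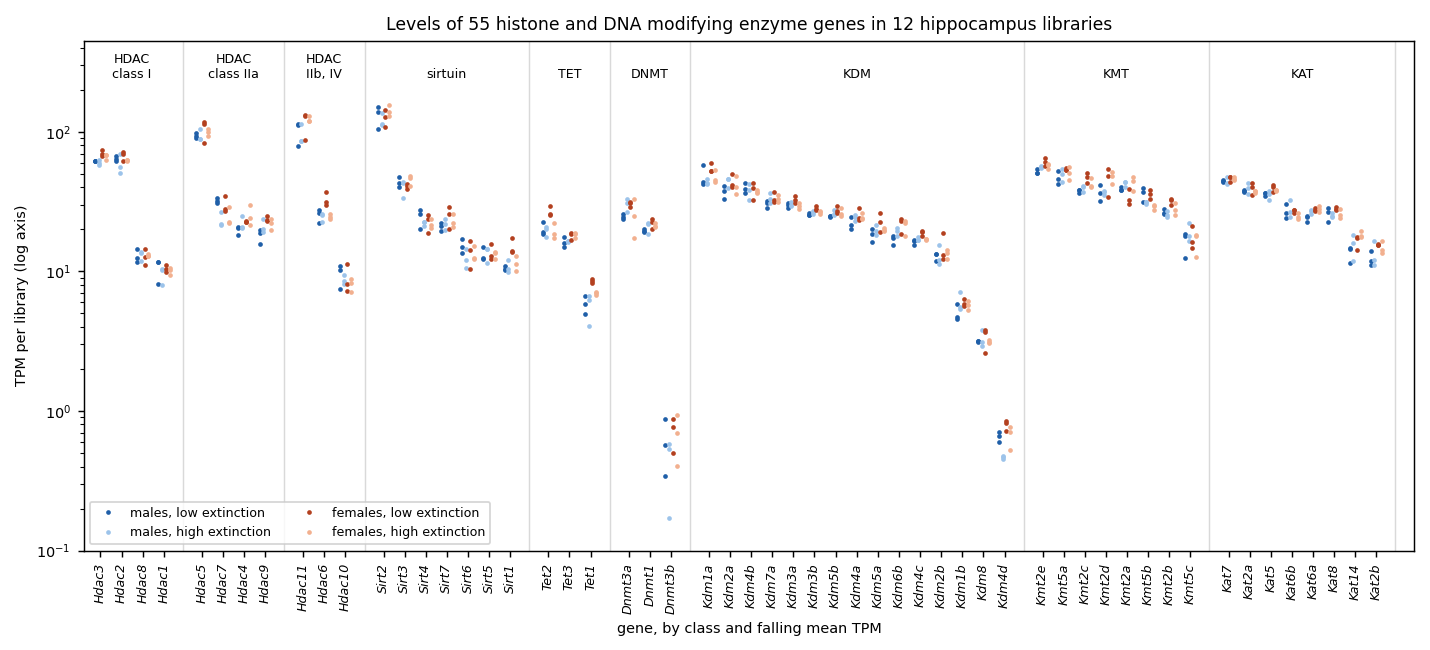
TPM of each of the 55 enzyme genes in each library, on a log axis, ordered by class. Each point is 1 mouse, with 3 mice each for low and high extinction in males and in females. The points of one gene mostly lie close together beside the distance between genes. Means over the 12 mice run from 0.604 TPM for Dnmt3b to 130 TPM for Sirt2.

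Within a group, mice differed from each other by a median SD of 0.14 on log2(TPM + 1) for these genes, against 0.15 for all genes tested. At 10 to 200 TPM, where 49 of the genes lay, the median SD was 0.14 against 0.13 for 10163 genes. Kdm3b and Kdm4c, demethylases of histone H3, and Hdac3, the catalytic subunit of the NCoR corepressor, varied least, with SDs of 0.03, 0.05 and 0.06. Kmt5c, which adds further methyl groups where Kmt5a placed the first, and Hdac11 and Dnmt3a varied most, with SDs of 0.26, 0.25 and 0.24.

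Class I deacetylases, the nuclear enzymes of the corepressor complexes, differed little between the extinction groups. Their summed level lay at 148 to 151 TPM in males with low extinction and 131 to 157 TPM in males with high extinction, and at 155 to 169 TPM in females with low extinction and 148 to 155 TPM in females with high extinction. In the authors' deposited tables all 4 had a change above 0 in males and 3 of 4 in females, the largest being 0.12 for Hdac2 in males (SE 0.09, DESeq2 adjusted p = 0.921). Hdac2, which restrains memory genes in mouse neurons, lay at 61.9, 66.6 and 63.9 TPM in males with low extinction, against 50.7, 56.0 and 69.8 TPM in males with high extinction. Females had levels of 62.3, 72.3 and 69.6 TPM with low extinction, against 63.4, 62.1 and 62.9 TPM with high extinction. The groups overlapped in both sexes.

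Hdac3 was among the steadiest genes of the family. Its level was 62.2, 62.1 and 62.3 TPM in males with low extinction, against 58.0, 60.2 and 62.7 TPM in males with high extinction. Females had 69.1, 67.0 and 73.8 TPM with low extinction, against 68.0, 68.6 and 62.4 TPM with high extinction. Hdac1, the close paralog of Hdac2, stayed between 7.98 and 11.7 TPM over all 12 mice, and Hdac8, on the X chromosome, between 11.1 and 14.4 TPM.

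Class IIa deacetylases shuttle between cytoplasm and nucleus with neuronal activity and repress MEF2 target genes, and 2 of them were among the 5 smallest p-values in males. Hdac9 lay at 18.8, 15.6 and 19.7 TPM in males with low extinction, against 20.2, 19.3 and 23.9 TPM in males with high extinction. The groups overlapped through 1 library of each. The authors' deposited table gave a log2 change of -0.20 in males (SE 0.10, p = 0.0413, DESeq2 adjusted p = 0.619). In females Hdac9 lay at 23.2, 25.0 and 23.4 TPM with low extinction, against 22.2, 23.7 and 19.96 TPM with high extinction, and the change in the authors' deposited table was 0.06 (SE 0.08, DESeq2 adjusted p = 0.889). The male minus female difference was -0.26 (SE 0.12) and did not pass (adjusted p = 0.68 over 15642 genes, from the authors' fold changes with a normal reference). The annotation places 3 other genes on the same strand within Hdac9, so reads of these cannot be told apart from its own without the study's counting rules.

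Hdac7 had the widest gap in TPM of any of the genes in males. It lay at 31.0, 31.9 and 33.3 TPM in males with low extinction (32.1 ± 1.19 TPM, SD, n = 3), against 21.9, 21.5 and 26.5 TPM in males with high extinction (23.3 ± 2.75 TPM, SD, n = 3). All 3 mice with low extinction lay above all 3 with high extinction. In males 4.2% of all genes were separated in this direction. The change of Hdac7 on log2(TPM + 1) was 0.45 (limma adjusted p = 0.696), and the count-based change in the authors' deposited table was 0.18 (SE 0.09, p = 0.0517, DESeq2 adjusted p = 0.662). In females Hdac7 lay at 27.2, 28.04 and 34.9 TPM with low extinction, against 22.5, 29.1 and 22.3 TPM with high extinction, with overlap, and with a change of 0.05 in the authors' deposited table (SE 0.09, DESeq2 adjusted p = 0.932). Averaged over both sexes its TPM change was 0.36 (SE 0.09, limma adjusted p = 0.353, the smallest of the family on average). Hdac7 is expressed in endothelium, whose 7 listed markers summed to 143 to 150 TPM in males with low extinction, against 129 to 147 TPM in males with high extinction, and to 163 to 169 TPM in females with low extinction, against 140 to 160 TPM in females with high extinction. In the authors' deposited tables, 3 of these 7 markers lay above 0 in males (median -0.011) and 5 in females (median 0.12). In both sexes 0 of them were called. The part of these markers in the Hdac7 values was not tested. Slc48a1 overlaps Hdac7 on the other strand.

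Hdac4, linked to memory by loss in mouse forebrain, had changes below 0 in both sexes, of -0.14 in males (SE 0.08, DESeq2 adjusted p = 0.769) and -0.11 in females (SE 0.07, DESeq2 adjusted p = 0.636) in the authors' deposited tables. It lay at 20.4, 20.97 and 18.3 TPM in males with low extinction, against 20.9, 20.6 and 25.1 TPM in males with high extinction. Levels in females were 22.6, 22.6 and 22.9 TPM with low extinction, against 21.5, 30.0 and 24.0 TPM with high extinction. The groups overlapped in both sexes, and the highest library of each sex came from a mouse with high extinction. Hdac5, the most abundant enzyme of this class, lay between 83.3 and 117 TPM in all 12 mice.

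Hdac11, a deacetylase that also removes fatty acyl groups, was the second most abundant gene of the family and one of the most variable. In females it lay at 132, 87.0 and 131 TPM with low extinction, against 131, 120 and 119 TPM with high extinction, and the authors' deposited table gave a change of -0.12 (SE 0.08, DESeq2 adjusted p = 0.681). A single library of low extinction lay below all others, and the rest were close together. Hdac10, which deacetylates polyamines, lay between 7.14 and 11.2 TPM.

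Of the sirtuins, Sirt6, a chromatin-bound enzyme known for repair of DNA and for control of glucose metabolism, had the smallest p of the family in males. It lay at 17.0, 13.5 and 15.1 TPM in males with low extinction, against 10.5, 12.0 and 14.5 TPM in males with high extinction. The groups overlapped through the lowest mouse of low and the highest of high extinction. The fold of low over high extinction in the authors' deposited table was 1.27 (log2 0.35, SE 0.12, p = 0.00478, DESeq2 adjusted p = 0.26). Females lay at 14.2, 10.3 and 16.5 TPM with low extinction, against 12.6, 15.1 and 12.3 TPM with high extinction, with a change of -0.06 in the authors' deposited table (SE 0.13, DESeq2 adjusted p = 0.944). The male minus female difference of 0.41 (SE 0.18) did not pass either (adjusted p = 0.583, from the authors' fold changes with a normal reference).

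The remaining sirtuins showed no gap between groups in males, and 5 of the 7 had a change above 0 in the authors' deposited table for males and 3 of 7 in that for females. Sirt2 lay at 139, 105 and 150 TPM in males with low extinction, against 112, 114 and 136 TPM in males with high extinction. The female levels were 127, 108 and 144 TPM with low extinction, against 155, 138 and 131 TPM with high extinction, with overlap in both sexes. The 9 oligodendrocyte markers listed summed to 2426 to 3277 TPM in males with low extinction, against 2386 to 4208 TPM in males with high extinction, and to 2885 to 3690 TPM in females with low extinction, against 3133 to 3205 TPM in females with high extinction. Of these 9 markers, 2 lay above 0 in males and 0 in females in the authors' deposited tables. In females 4 had an unadjusted p under 0.05, and 0 were called in either sex. Their part in the level of Sirt2 was not tested. Sirt1, a nuclear sirtuin that supports synaptic plasticity in mice and the lowest of its class, lay at 17.3, 13.8 and 13.9 TPM in females with low extinction, against 11.3, 12.9 and 10.1 TPM in females with high extinction. These did not overlap, as for 14.3% of all genes in this direction in females. The count-based change of Sirt1 in the authors' deposited table was 0.12 (SE 0.09, DESeq2 adjusted p = 0.75).

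Tet2 had the smallest p of the family in females. It lay at 25.8, 25.4 and 29.6 TPM in females with low extinction (26.9 ± 2.30 TPM, SD, n = 3), against 22.3, 18.7 and 17.4 TPM in females with high extinction (19.5 ± 2.54 TPM, SD, n = 3). All 3 mice with low extinction lay above all 3 with high extinction. In females 14.3% of all genes were separated in this direction. The fold of low over high extinction for Tet2 in the authors' deposited table was 1.13 (log2 0.18, SE 0.07, p = 0.00774, DESeq2 adjusted p = 0.253), and the TPM change was 0.45 (limma adjusted p = 0.434). In males Tet2 lay at 22.5, 19.1 and 18.6 TPM with low extinction, against 20.8, 17.6 and 20.04 TPM with high extinction, with overlap, and its change in the authors' deposited table was 0.09 (SE 0.08, DESeq2 adjusted p = 0.959).

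Tet1, whose loss impairs extinction of fear memory in mice, was the lowest of the 3 Tet genes. In females it lay at 8.54, 8.33 and 8.84 TPM with low extinction, against 7.11, 6.73 and 6.96 TPM with high extinction. Tet1 was thus entirely above with low extinction, as were 14.3% of all genes. Its count-based change in the authors' deposited table was 0.06 (SE 0.10, DESeq2 adjusted p = 0.923). In males it lay at 6.62, 5.84 and 4.96 TPM with low extinction, against 6.24, 6.66 and 4.06 TPM with high extinction, with overlap. Tet3, the Tet enzyme that neurons raise with activity, lay between 14.99 and 18.9 TPM in all 12 mice. Summed, the 3 genes lay at 50.6 to 56.9 TPM in females with low extinction, against 41.8 to 48.0 TPM in females with high extinction, and at 40.9 to 44.1 TPM in males with low extinction, against 40.2 to 43.5 TPM in males with high extinction. The TPM change in females was above 0 for 69.1% of all genes. The count-based change of Tet3 in females was -0.08 (SE 0.06, DESeq2 adjusted p = 0.745).

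The DNA methyltransferases were led by Dnmt3a, followed by Dnmt1, which copies methylation to new strands, while Dnmt3b stayed between 0.171 and 0.93 TPM. Dnmt3a lay at 24.4, 23.9 and 25.8 TPM in males with low extinction, against 26.5, 30.7 and 32.97 TPM in males with high extinction. All 3 mice with low extinction lay below all 3 with high extinction, as for 7.28% of all genes in males. The TPM change of Dnmt3a was -0.27 (limma adjusted p = 0.766), and its change in the authors' deposited table was -0.13 (SE 0.07, DESeq2 adjusted p = 0.737). Females had 31.4, 29.2 and 30.7 TPM with low extinction, against 32.9, 17.2 and 24.8 TPM with high extinction. Here the groups overlapped, since the libraries of high extinction held both the highest and the lowest value. The TPM change was 0.32 in females, against -0.01 in the authors' deposited table (SE 0.06, DESeq2 adjusted p = 0.987). Dnmt3aos, annotated on the other strand, lay at 0.304 to 1.303 TPM, and no source used here says whether strand was read in counting. Dnmt1 lay between 18.5 and 23.9 TPM in all 12 mice.

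**Figure D2:**
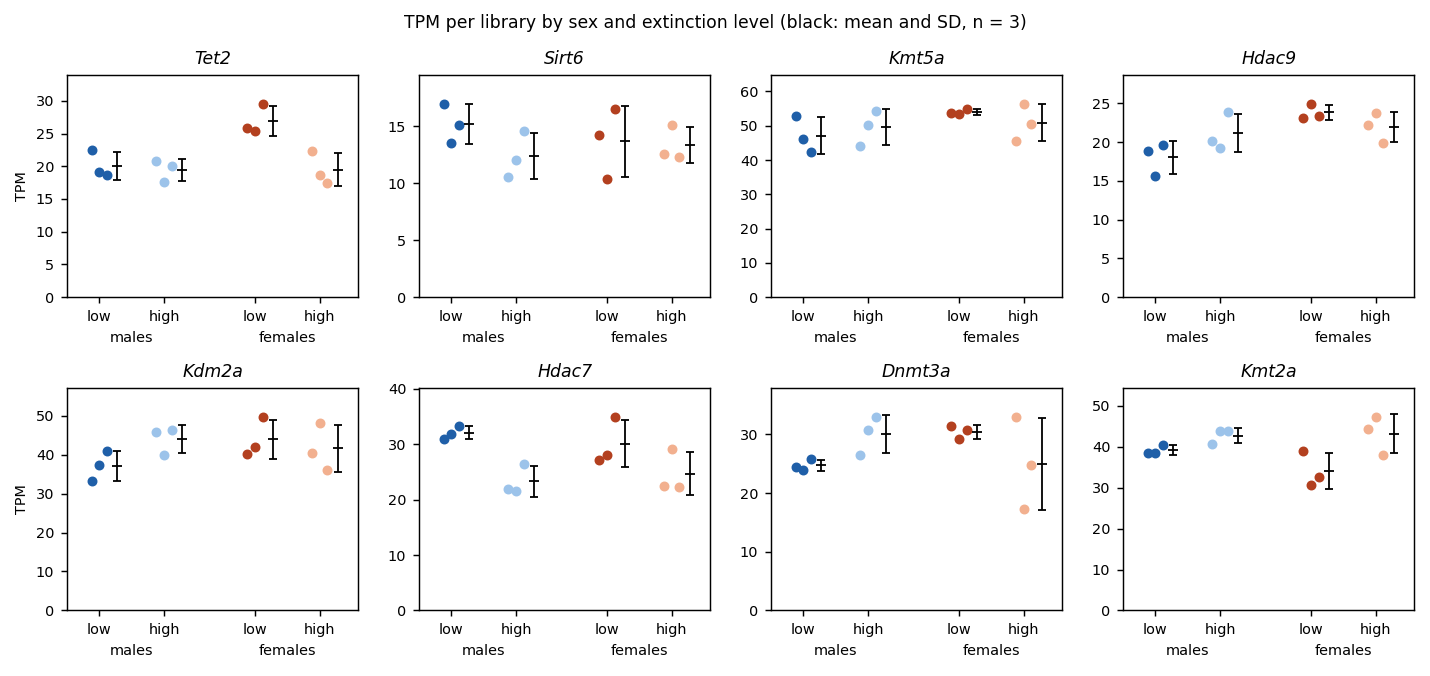
TPM in each mouse for Tet2, Sirt6, Kmt5a, Hdac9, Kdm2a, Hdac7, Dnmt3a and Kmt2a, with low left of high extinction in each sex, males left and females right; each point is a mouse and black bars give the mean and SD (n = 3). Hdac7 in males (31.0 to 33.3 against 21.5 to 26.5 TPM) and Tet2 in females (25.4 to 29.6 against 17.4 to 22.3 TPM) lie entirely above with low extinction. Dnmt3a (23.9 to 25.8 against 26.5 to 32.97 TPM) and Kmt2a (38.4 to 40.5 against 40.6 to 43.8 TPM) lie entirely below in males. Sirt6, Kmt5a, Hdac9 and Kdm2a overlap in both sexes. Of all genes, 4.2% lie entirely above and 7.28% entirely below in males, and 14.3% entirely above in females.

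Among the demethylases, which remove methyl groups from histone lysines, Kdm2a came closest to a difference in males. Kdm2a, which binds unmethylated CpG islands, lay at 33.2, 37.4 and 40.9 TPM in males with low extinction, against 45.7, 39.9 and 46.3 TPM in males with high extinction. The highest of low and the lowest of high extinction crossed. The authors' deposited table gave a change of -0.15 in males (SE 0.07, p = 0.0418, DESeq2 adjusted p = 0.619). Females lay at 40.1, 41.9 and 49.7 TPM with low extinction, against 40.4, 48.2 and 36.1 TPM with high extinction, with a change of -0.07 in the authors' deposited table (SE 0.06, DESeq2 adjusted p = 0.785).

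Kdm1a, a flavin-dependent demethylase with a neuronal splice form, led its class with a mean of 48.6 TPM and lay between 42.0 and 60.2 TPM. The change in TPM was above 0 in females for all 15 demethylases, against 69.1% of all genes at 1 TPM or more. In the authors' deposited table for females 6 of 15 were above 0, against 44.8% of all genes with an adjusted p. Kdm4d, below the 1 TPM filter, lay at 0.662, 0.711 and 0.596 TPM in males with low extinction, against 0.469, 0.456 and 0.473 TPM in males with high extinction. These do not overlap, and the authors' deposited table gave 0.58 with an SE of 0.40 (DESeq2 adjusted p = 0.895), the largest SE of the family.

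Kmt5a had the smallest p of the methyltransferases in males, and the second smallest of all 55 genes. It lay at 52.8, 46.1 and 42.2 TPM in males with low extinction, against 43.98, 50.3 and 54.4 TPM in males with high extinction, which overlapped over most of their range. The authors' deposited table gave a log2 change of -0.20 (SE 0.07, p = 0.00667, DESeq2 adjusted p = 0.30), while the TPM change was -0.07 (limma adjusted p = 0.982) and ran from -0.16, without replicate 1 of low extinction, to -0.00018, without replicate 3 of low extinction. Levels in females were 53.6, 53.3 and 54.9 TPM with low extinction, against 45.5, 56.5 and 50.7 TPM with high extinction. The female change in the authors' deposited table was -0.08 (SE 0.07, DESeq2 adjusted p = 0.754), below 0 as in males, whereas the female TPM change was 0.09.

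Kmt5b, which works downstream of Kmt5a on histone H4, was among the 5 smallest p-values in females. It lay at 32.8, 36.0 and 38.5 TPM in females with low extinction, against 29.4, 27.7 and 29.7 TPM in females with high extinction. Kmt5b was thus entirely above with low extinction, as were 14.3% of all genes. Its TPM change was 0.29 (limma adjusted p = 0.477) and its change in the authors' deposited table was 0.09 (SE 0.07, DESeq2 adjusted p = 0.695). Kmt2e, the most abundant of the class, lay at 50.8, 51.01 and 54.3 TPM in males with low extinction, against 55.2, 57.0 and 56.1 TPM in males with high extinction, and in females the groups overlapped.

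Kmt2a, a methyltransferase of the MLL family needed for memory in mouse forebrain, is added here after its values were seen. It lay at 38.4, 38.5 and 40.5 TPM in males with low extinction, against 40.6, 43.8 and 43.8 TPM in males with high extinction. Kmt2a was thus entirely below with low extinction, as were 7.28% of all genes. In females it lay at 38.9, 30.6 and 32.7 TPM with low extinction, against 44.3, 47.3 and 38.0 TPM with high extinction, with overlap through 1 library of each. Its change in females was -0.34 in TPM but -0.01 in the authors' deposited table (SE 0.05, DESeq2 adjusted p = 0.972).

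Of the acetyltransferases, none was called in either sex. Kat7, a MYST family enzyme that acetylates histones H3 and H4, lay at 47.6, 43.6 and 47.7 TPM in females with low extinction, against 45.5, 47.8 and 45.8 TPM in females with high extinction. The authors' deposited table gave -0.09 (SE 0.06, DESeq2 adjusted p = 0.626), the second smallest p of the family in females. Across the 8 genes, changes in the authors' deposited tables ran from -0.13 to 0.03 in males and from -0.09 to 0.05 in females. The TPM change was above 0 for 3 of the 8 in males and 5 in females. Kat14 had a TPM change of -0.16 in each sex (limma adjusted p = 0.963 in males and 0.652 in females). Its count-based changes were 0.00022 in males and -0.01 in females. Kat6a had TPM changes of -0.15 in males (limma adjusted p = 0.859) and -0.02 in females. Kat2b, the lowest of the class, lay between 11.0 and 16.6 TPM, and its pseudogene Kat2b-ps was listed at 1.60 to 3.17 TPM, so that reads of both may have been divided between them.

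As a whole the family had changes near 0. A count-based change above 0 was given by the authors' deposited tables for 25 of 55 genes in males, against 48.4% of all genes, and for 23 of 53 in females, against 44.8%. The median change was -0.0049 in males, against -0.0051 for all genes, and -0.011 in females, against -0.014. The median size of change regardless of sign was 0.053 in males, against 0.088 for the 16588 genes in the same range of mean counts, and 0.055 in females, against 0.070 for 12375 genes. That range spans the lowest to the highest mean count of the family (33.4 to 14238 in males, 181 to 15494 in females). Genes were not matched by count within it, so these medians do not compare the family with genes of like abundance. At an unadjusted p under 0.05 stood 4 genes in males (Sirt6, Kmt5a, Hdac9 and Kdm2a), against 7.61% of all genes, and 1 in females (Tet2), against 9.95%. Their smallest DESeq2 adjusted p was 0.26 in males and 0.253 in females in the authors' deposited tables.

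On the count-based scale, the standard errors bound how far these genes could have differed. The 95% interval of the authors' deposited fold change lay within 1.5-fold either way for 52 of 55 genes in males, the exceptions being Dnmt3b, Kdm4d and Sirt6, and for 53 of 55 in females, the exceptions being Dnmt3b and Kdm4d. The median SE was 0.081 in males and 0.074 in females on the log2 scale. These intervals are per gene, are not adjusted over the genes and rest on 3 mice a group. They do not bound the change in TPM, which lay outside the interval of the authors' deposited change for 5 of 53 genes in males, against 5.44% of all genes, and for 17 of 53 in females, against 10.5%. Among these were Hdac7 in males (0.45 in TPM, against an upper limit of 0.35), and in females Tet2 (0.45, against an upper limit of 0.31), Dnmt3a (0.32, against 0.12), Hdac6 (0.39, against 0.23) and Kmt2a (-0.34, against a lower limit of -0.11).

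**Figure D3:**
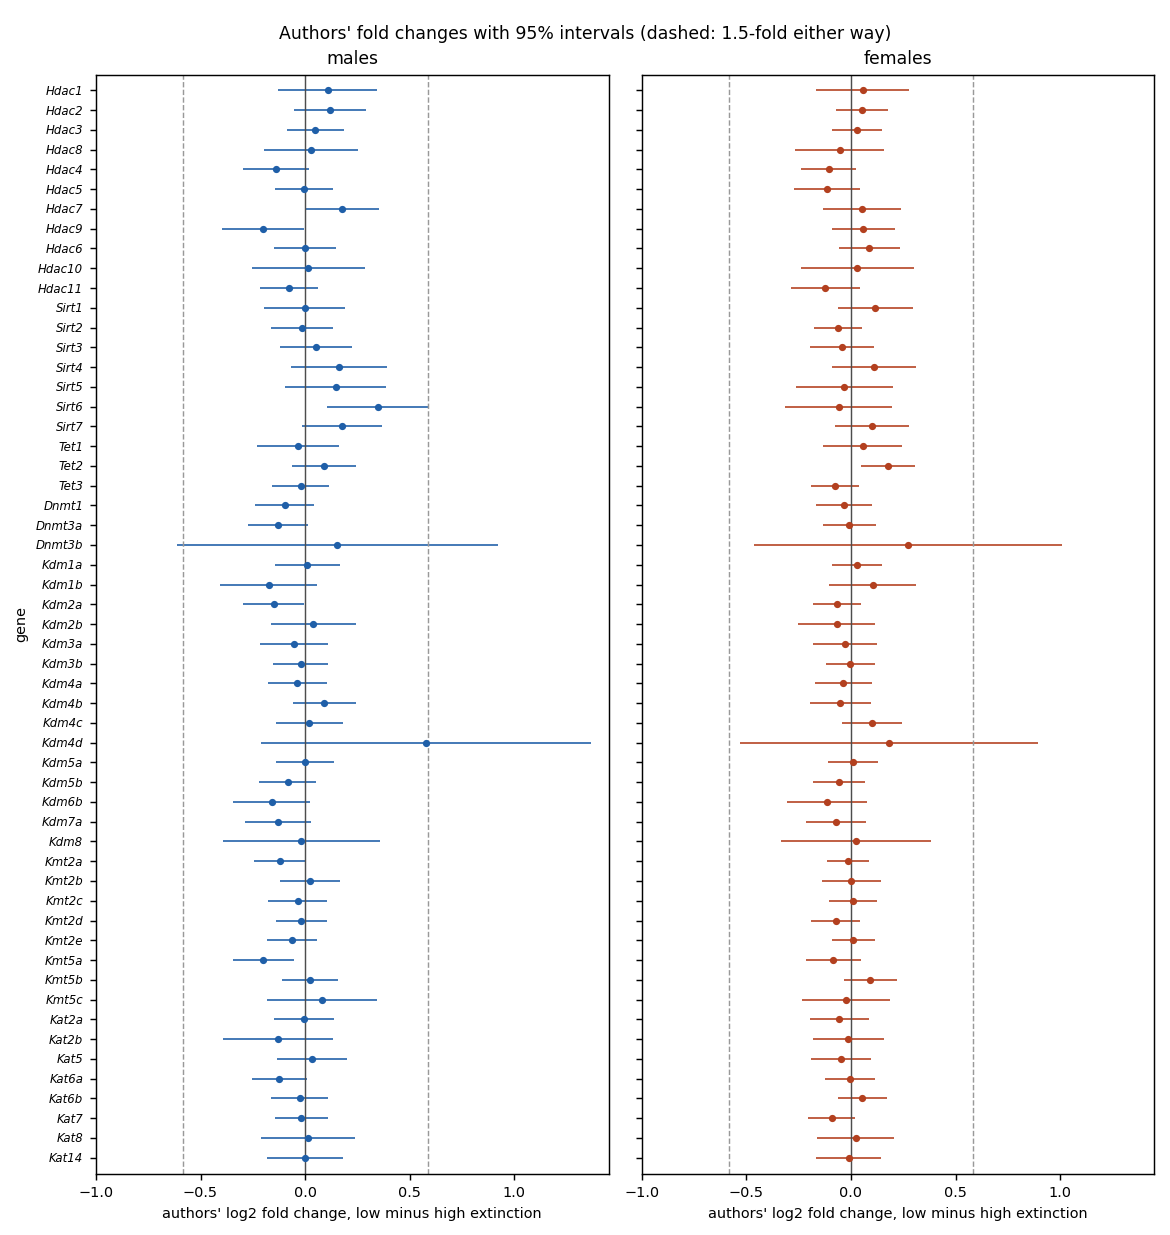
The authors' log2 fold change, low minus high extinction, of each enzyme gene in males and in females, with its 95% interval as bars; vertical lines mark 0 and 1.5-fold either way. The intervals of Dnmt3b and Kdm4d reach past 1.5-fold in both sexes and that of Sirt6 in males, and all others lie inside.

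Tests on TPM gave the same count. limma called 0 of 53 genes in males, against a background of 0% of 18303 genes, and 0 of 53 in females, against 0.0107% of 18668. At an unadjusted p under 0.05 there were 2 of 53 genes in males, against 6.29% of all, and 6 of 53 in females, against 8.83%. For the average of both sexes 0 of 53 were called (0% of 18499 genes), with 5 at an unadjusted p under 0.05, against 7.7%, and for the male minus female difference 0 of 53 (0.00541% of all), with 7 at an unadjusted p under 0.05, against 7.92%. The smallest limma adjusted p of a gene of the family was 0.696 in males and 0.419 in females, with 0.353 for the average and 0.58 for the difference.

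Combining the authors' fold changes of both sexes, weighted by their precision, gave 0 of 53 called on average, against 1.29% of 15642 genes. At an unadjusted p under 0.05 there were 6 (Hdac4, Kdm2a, Kdm6b, Kmt5a, Sirt7 and Tet2), against 10.9%. Tet2 at 0.14 (SE 0.05, adjusted p = 0.175) and Kmt5a at -0.14 (SE 0.05, adjusted p = 0.185) had the smallest adjusted p-values of this combination. For the difference between the sexes 0 of 53 were called, against 0.409% of all, and 2 (Hdac9 and Sirt6) had an unadjusted p under 0.05, against 6.81%. The sign was the same in both of the authors' deposited tables for 35 of 53 genes, 21 below and 14 above 0, against 54.7% of all genes, and Pearson's r across the 53 genes was 0.27, against 0.0048 across all genes. Genes are not independent replicates, and all share the 12 libraries, so no test is attached.

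Separation of the libraries depended on sex and on the scale. In males the low-extinction libraries lay entirely above those of high extinction in TPM for 1 of 53 genes, Hdac7, against 4.2% of all genes, and entirely below for 5 (Dnmt3a, Kat6a, Kdm5b, Kmt2a and Kmt2e), against 7.28%. In females they lay entirely above for 8 (Hdac6, Kdm3a, Kdm3b, Kdm4c, Kmt5b, Sirt1, Tet1 and Tet2), against 14.3%, and entirely below for 1 (Kat14), against 1.98%. On this scale no gene was separated in both sexes. After quantile normalization, chosen after seeing the data, the counts in males were 2 above, against 6.7% of all genes, and 2 below, against 6.02%. In females they were 5 above, against 6.35%, and 2 below, against 7%. On that scale Kmt2a was entirely below in both sexes.

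In females the TPM changes as a body lay above the count-based ones. The TPM change was above 0 for 42 of 53 genes in females, against 69.1% of all genes, and for 21 of 53 in males, against 43.1%. With quantile normalization 31 of 53 lay above 0 in females and 28 of 53 in males, against 49.1% and 50.8% of all genes. Subtracting the authors' deposited change from the TPM change gave a median gap over all genes of 0.079 in females and -0.017 in males, and for the 53 genes of 0.084 in females and -0.011 in males. Beyond that shift, gaps over 0.2 were found for Dnmt3a, Hdac6, Kat14 and Kmt2a in females, against 14.8% of all genes, and for Hdac7, Kmt5c and Sirt7 in males, against 14.6%. Hdac6, an X-linked tubulin deacetylase named here after its values were seen, lay at 31.7, 29.9 and 37.0 TPM in females with low extinction, against 24.5, 25.7 and 23.9 TPM in females with high extinction. Its TPM change of 0.39 stood beside 0.09 in the authors' deposited table (SE 0.07, DESeq2 adjusted p = 0.771). Which of the named tools made each scale, and so what sets the gaps apart, was not tested.

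**Figure D4:**
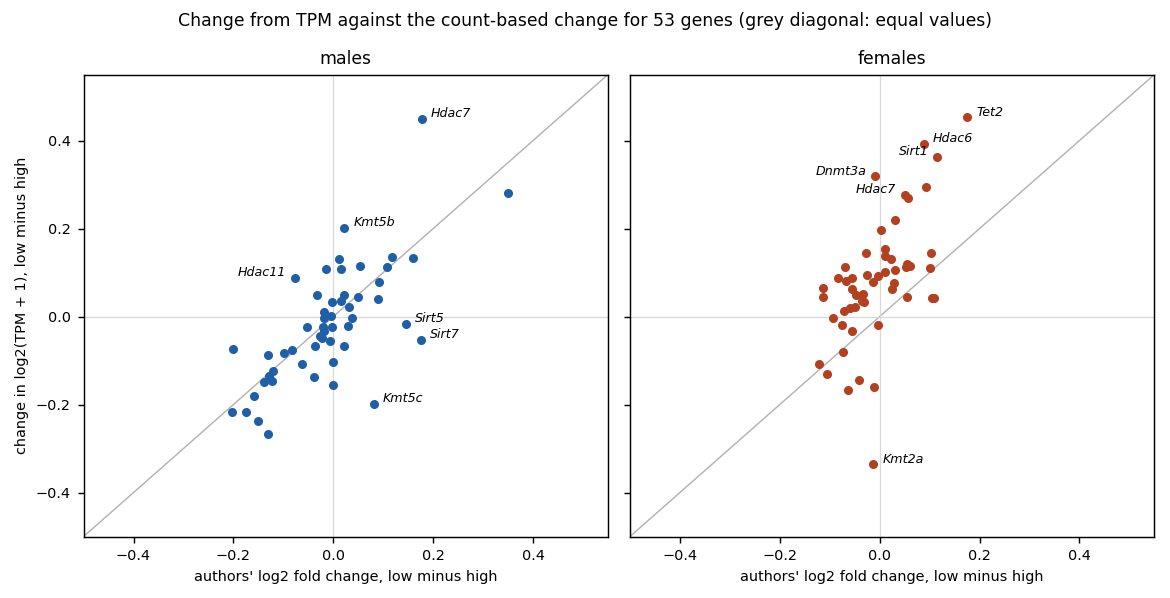
Change on log2(TPM + 1) against the authors' log2 fold change, both low minus high extinction, for the 53 genes at 1 TPM or more in males (left) and females (right); each point is a gene and the grey diagonal marks equal values. Most female points lie above the diagonal, with Tet2 (0.45 against 0.18) and Hdac6 (0.39 against 0.09) high and Kmt2a (-0.34 against -0.01) low, and Hdac7 stands out in males (0.45 against 0.18).

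Other chromatin genes were read from lists chosen by textbook function. Of 40 further histone-modifying enzymes in the tables, the authors' deposited table for males called 1, Setd1b, against 0.504% of all genes. That for females called 0 of 39, against 0.857% of all genes. Above 0 lay 11 of 40 in males, with a median of -0.045, and 15 of 39 in females, with a median of -0.017. Setd1b, a methyltransferase of the COMPASS family, lay at 20.4, 19.95 and 23.2 TPM in males with low extinction, against 25.3, 25.6 and 26.1 TPM in males with high extinction, without overlap. Over all genes, 7.28% were separated in this direction in males. Setd1b was lower with low extinction, by a log2 change of -0.28 in the authors' deposited table (SE 0.07, DESeq2 adjusted p = 0.0441). Its change in females was -0.16 (SE 0.07, DESeq2 adjusted p = 0.39). Of 29 corepressor subunits 0 were called in either of the authors' deposited tables, with 14 above 0 in males and 7 in females. Of the readers of methylated DNA and enzymes of its repair 0 were called, with 7 of 18 above 0 in males and 10 of 17 in females. At an unadjusted p under 0.05 the authors' deposited table for males held 5 of 40 further histone enzymes, 6 of 29 corepressor subunits and 2 of 18 readers and repair enzymes, against 7.61% of all genes. That for females held 5 of 39, 2 of 29 and 3 of 17 in the same order, against 9.95%. On TPM, limma called 0 genes of these lists in males, in females and for the average, Setd1b included.

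Marker sums of tissue next to the hippocampus also differed between libraries. The 8 ependymal markers summed to 18.0 to 35.9 TPM in males with low extinction, against 48.5 to 59.0 TPM in males with high extinction, and 4 were called lower in the authors' deposited table. In females they overlapped, at 34.6 to 62.8 TPM with low extinction, against 24.3 to 52.1 TPM with high extinction, and 0 were called. The 9 meningeal markers summed to 326 to 564 TPM in males with low extinction, against 686 to 992 TPM in males with high extinction. In females they summed to 920 to 1487 TPM with low extinction, against 593 to 874 TPM with high extinction. These sums did not overlap in either sex, and their directions were opposite. Most of each sum was Ptgds, at 275 to 465 TPM in males with low extinction, against 576 to 878 TPM with high extinction. In females Ptgds lay at 812 to 1367 TPM, against 504 to 782 TPM. It was called in neither sex (DESeq2 adjusted p = 0.372 in males and 0.123 in females). Of the 9 markers, 0 had a count-based change above 0 in males and 9 in females. The authors' deposited tables called 1 meningeal marker lower in males (Col3a1) and 4 higher in females (Col1a2, Col3a1, Igf2 and Slc6a13). The 9 thalamic markers summed to 151 to 156 TPM in females with low extinction, against 95.1 to 115 TPM in females with high extinction, and 3 were called higher in the authors' deposited table. In males they overlapped, at 76.9 to 118 TPM with low extinction, against 94.3 to 135 TPM with high extinction, and 0 were called. The 10 choroid plexus markers varied most within groups, at 151 to 1330 TPM in males with low extinction, against 518 to 4352 TPM in males with high extinction, and at 242 to 1571 TPM in females with low extinction, against 141 to 1684 TPM in females with high extinction. Their median change in the authors' deposited tables was -2.33 in males and -0.19 in females, and 0 were called. Over all genes, 0.504% were called in the authors' deposited table for males and 0.857% in that for females. The part of these tissues in the levels of the enzyme genes was not tested.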

How the data were processed

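Hippocampal poly(A) RNA of 12 mice was sequenced from 1 µg of total RNA per library, per the labels' protocols. Builds GRCm38.p5 and mm10 are named in the submitters' processing notes, as are the tools DESeq2, StringTie 1.3.3b, HTSeq, Bowtie2 and TopHat2, all without roles. The authors deposited 1 table of TPM per sex. The authors' other deposited table per sex is from DESeq2 and holds, per the file headers, mean normalized counts (a signal), the log2 fold change and its standard error, a test score, and the p-value before and after adjustment. The direction of the fold change is unnamed. It correlated at -0.58 in males (17913 genes) and -0.46 in females (18275) with the TPM change low minus high, and was multiplied by -1, after which 90 of 90 called male genes and 131 of 132 female ones at 1 TPM or more had the sign of their TPM change.

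The tests took genes averaging 1 TPM or more and ran on log2(TPM + 1), a scale on which the changes of low genes look smaller, with limma 3.58.1 in R 4.3.3 (trend, two-sided, Benjamini-Hochberg at 0.05 over all genes), over 6 libraries per sex, and over 12 for the average and the difference. The authors' fold changes of both sexes were averaged by inverse variance, or subtracted, against a normal distribution. Named genes were the 5 smallest p-values per sex, the highest and lowest of each class, the 3 most and least variable, and the Dnmt, Tet and class I Hdac genes, with Kmt2a and Hdac6 added after their values were seen. Members and lists were chosen with earlier results of these data known. Positions and overlaps come from GENCODE M21. Figures used Python 3.11.15 with matplotlib 3.10.9. No count model was run, since the tables used here hold no counts per library.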

Additional observations from a re-analysis of the deposited data

How the results depend on the processing

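Across 74 limma fits, with other pseudocounts, filters, scalings, variance models and each replicate left out in turn, 0 genes of the family were called, and the smallest adjusted p of any was 0.265. Of 84 changes of 28 named genes (males, females and average), 50 kept their sign in every setting, and 5 of 1400 recomputations moved by more than the spread within groups. The 28 leave out Kmt2a and Hdac6, which were added later, and Dnmt3b and Kdm4d, which lay below 1 TPM. Without single libraries the male TPM change of Hdac7 ran from 0.40 to 0.54, the female change of Tet2 from 0.38 to 0.55, and the male change of Sirt6 from 0.18 to 0.39. The female change of Dnmt3a was 0.08 without replicate 2 and 0.53 without replicate 1 of high extinction. The change of Kmt5a ran from -0.16 to -0.00018 in males and from 0.01 to 0.16 in females. The counts of separated genes moved with quantile normalization, to 2 above (6.7% of all genes) and 2 below (6.02%) in males, and 5 above (6.35%) and 2 below (7%) in females, Kmt2a being below in both sexes. Without the ribosomal RNA-derived set they were 1 above (4.33%) and 6 below (10%) in males. In females they were then 7 above (9.61%) and 1 below (4.21%). The shares over all genes moved as well, and the cause was not tested. No paired analysis was possible because replicate numbers follow record order and pair no mice. Depth per library is unknown, and 3 libraries a group limit precision.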

Other observations

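The genes of the same families that the choice left out had these levels. Kdm5c, an X-linked demethylase, lay between 22.1 and 32.1 TPM over the 12 mice, and Kdm6a, an X-linked demethylase of another histone mark, between 14.9 and 26.9 TPM. Kdm5d, the Y-linked counterpart of Kdm5c, lay between 13.2 and 14.0 TPM in males with low extinction and between 11.6 and 14.0 TPM in males with high extinction, and at 0.0073 TPM or less in females. The antisense gene Kdm6bos lay between 1.14 and 3.25 TPM. Dnmt3l, a catalytically inactive partner of the DNA methyltransferases, reached 0.295 TPM at most, and Dnmt3c reached 0.0223 TPM at most.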
